A study of Mus musculus with 16 samples.

Results

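The gene set described here comprises 10 genes of the AP-1 and immediate early class: *Fos*, *Fosb*, *Fosl1*, *Fosl2*, *Jun*, *Junb*, *Jund*, *Egr1*, *Atf3* and *Ier3*. They were taken by gene name from a count table of 55487 genes, and each name matched 1 row. Expression had been measured by RNA-seq in the epithelium of the urogenital sinus (UGS), the fetal duct that gives rise to the prostate, of male C57BL/6J mouse fetuses on E16.75. The dams of 4 pools had been given TCDD (2,3,7,8-tetrachlorodibenzo-p-dioxin, a potent ligand of the aryl hydrocarbon receptor, AHR) by mouth on E13.5, and the dams of the other 4 pools had been given corn oil (vehicle, 5 ml/kg) in the same way. The dose was 5 µg/kg in the sample labels and 1 µg/kg in the general text of the series. Each pool held 5 or 6 UGS epithelia, which had been digested with trypsin and collagenase and parted from the mesenchyme by hand, so that a replicate is a pool of fetuses and not an animal. The labels name no transgene or deletion in either group.

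AP-1 is a dimer of leucine zipper proteins, most often a FOS family protein joined to a JUN family protein, that binds the sequence TGANTCA. Many of its genes are immediate early genes, whose transcripts rise within minutes of a growth factor, a stress or the handling of a tissue, without new protein synthesis, and fall again quickly. In stratified and glandular epithelia, AP-1 proteins are known for roles in proliferation, wound repair and keratinocyte differentiation.

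Of the 10 genes, 8 had enough counts to be tested in the comparison of 7 pools and 7 in that of all 8. The authors had left out TCDD replicate 1 as an outlier, so the comparison of TCDD replicates 2 to 4 with the 4 vehicle pools is given first and that of all 8 pools beside it. Over the 7 pools, edgeR's quasi-likelihood test called 3 members higher after TCDD exposure (*Fos*, *Fosl2* and *Ier3*) and 2 lower (*Jun* and *Atf3*) at an adjusted p of at most 0.05. Among all 14233 genes tested, 11.9% were called higher and 11.2% lower. Over 8 pools the test called the same 3 members higher and 1 lower (*Atf3*), against 7.41% and 6% of 14051 genes. The median log2 fold change was −0.06 for the 8 members tested over 7 pools. It was 0.28 for the 7 tested over 8 pools, which leave out *Jund*, so the 2 medians are not of the same genes. That of all tested genes was 0.00 in both comparisons. The genes therefore did not move one way, and the account below takes them singly, by family.

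The promoters of 4 genes are shown because these carried the largest called changes: *Ier3* and *Fos*, which rose, and *Jun* and *Atf3*, which fell. Each line holds the 250 bases before the RefSeq transcription start (GRCm38.p6), on the strand of the gene, with the matches to the motifs named below in capitals.
Ier3: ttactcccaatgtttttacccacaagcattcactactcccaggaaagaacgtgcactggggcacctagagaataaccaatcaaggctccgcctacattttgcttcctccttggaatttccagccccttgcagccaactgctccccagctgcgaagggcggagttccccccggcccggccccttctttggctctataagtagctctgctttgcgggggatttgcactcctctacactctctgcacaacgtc
Fos: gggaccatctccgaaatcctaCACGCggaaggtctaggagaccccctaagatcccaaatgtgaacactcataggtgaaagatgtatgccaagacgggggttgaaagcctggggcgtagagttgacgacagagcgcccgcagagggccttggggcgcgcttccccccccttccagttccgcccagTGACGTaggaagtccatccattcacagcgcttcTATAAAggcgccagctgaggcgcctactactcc
Jun: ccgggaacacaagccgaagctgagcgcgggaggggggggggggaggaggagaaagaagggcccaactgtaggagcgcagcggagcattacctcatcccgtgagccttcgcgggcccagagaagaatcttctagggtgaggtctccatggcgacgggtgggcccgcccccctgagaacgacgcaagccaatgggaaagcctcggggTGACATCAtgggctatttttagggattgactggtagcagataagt
Atf3: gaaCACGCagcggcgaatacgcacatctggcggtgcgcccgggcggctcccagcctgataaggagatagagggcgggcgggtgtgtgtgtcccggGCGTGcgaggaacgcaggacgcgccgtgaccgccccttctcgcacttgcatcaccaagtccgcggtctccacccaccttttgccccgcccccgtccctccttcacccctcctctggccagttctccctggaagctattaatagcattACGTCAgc
The windows lie at chr17:35821463-35821712 (plus strand), chr12:85473640-85473889 (plus strand), chr4:95052223-95052472 (minus strand) and chr1:191183334-191183583 (minus strand), in that order. The RefSeq start equals the GENCODE gene start for *Fos* and *Jun*, lies 29 bases from it for *Ier3*, and lies 34706 bases from it for *Atf3*, whose gene has several promoters.

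In all, 6 motifs were searched. The AP-1 site TGANTCA was found in none of the 4 windows, and it occurs in 6.75% of all 32851 promoter windows of the same length (both strands). The *Jun* window held a match to the CRE-type site TGACNTCA, in the form TGACATCA, that begins 45 bases before the start. This motif occurs in 7.49% of windows. The half-site TGACGT, which overlaps the CRE-type site where that has G in the middle, was found 66 bases before the start of *Fos* and, on the other strand, 8 bases before that of *Atf3*, against 6.47% of windows. It was added to the search after the sequences had been read. The core of the AHR response element, GCGTG, occurs in 28.2% of windows. It was found once in the *Fos* window, 229 bases before the start, and at 2 places in the *Atf3* window, 247 and 155 bases before the start. Neither the *Ier3* nor the *Jun* window held it. A TATAAA on the strand of the gene, which 7.59% of windows hold, stood 33 bases before the start of *Fos*. No CArG box, the binding site of SRF, was matched in the 4 windows (1.47% of all). Bases further upstream than 250 were not searched, so the absence holds for these windows only. The *Ier3* window matched none of the 6 motifs. These matches describe letters and not binding.

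The total count of a pool, summed over its lanes, was 22254896 to 26740656 after TCDD and 25917911 to 28146766 after vehicle. Levels are given in CPM, counts per 1000000 of the TMM-scaled library. The labels were checked on 5 genes that AHR is known to induce (*Cyp1a1*, *Cyp1b1*, *Ahrr*, *Tiparp* and *Nqo1*), whose summed level was 538 to 715 CPM in the 4 TCDD pools and 33.4 to 39.8 CPM in the 4 vehicle pools. Epithelial markers (10 genes, among them *Cdh1* and *Epcam*) summed to 8562 CPM or more in every pool, against at most 200 CPM for 13 mesenchyme markers. TCDD replicate 1 stood apart, with a mean correlation of 0.982 with the other TCDD pools where these had 0.988 to 0.989. Mesenchyme markers also set it apart, and are given beside *Jun* with those of smooth muscle and endothelium.

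**Figure D1:**
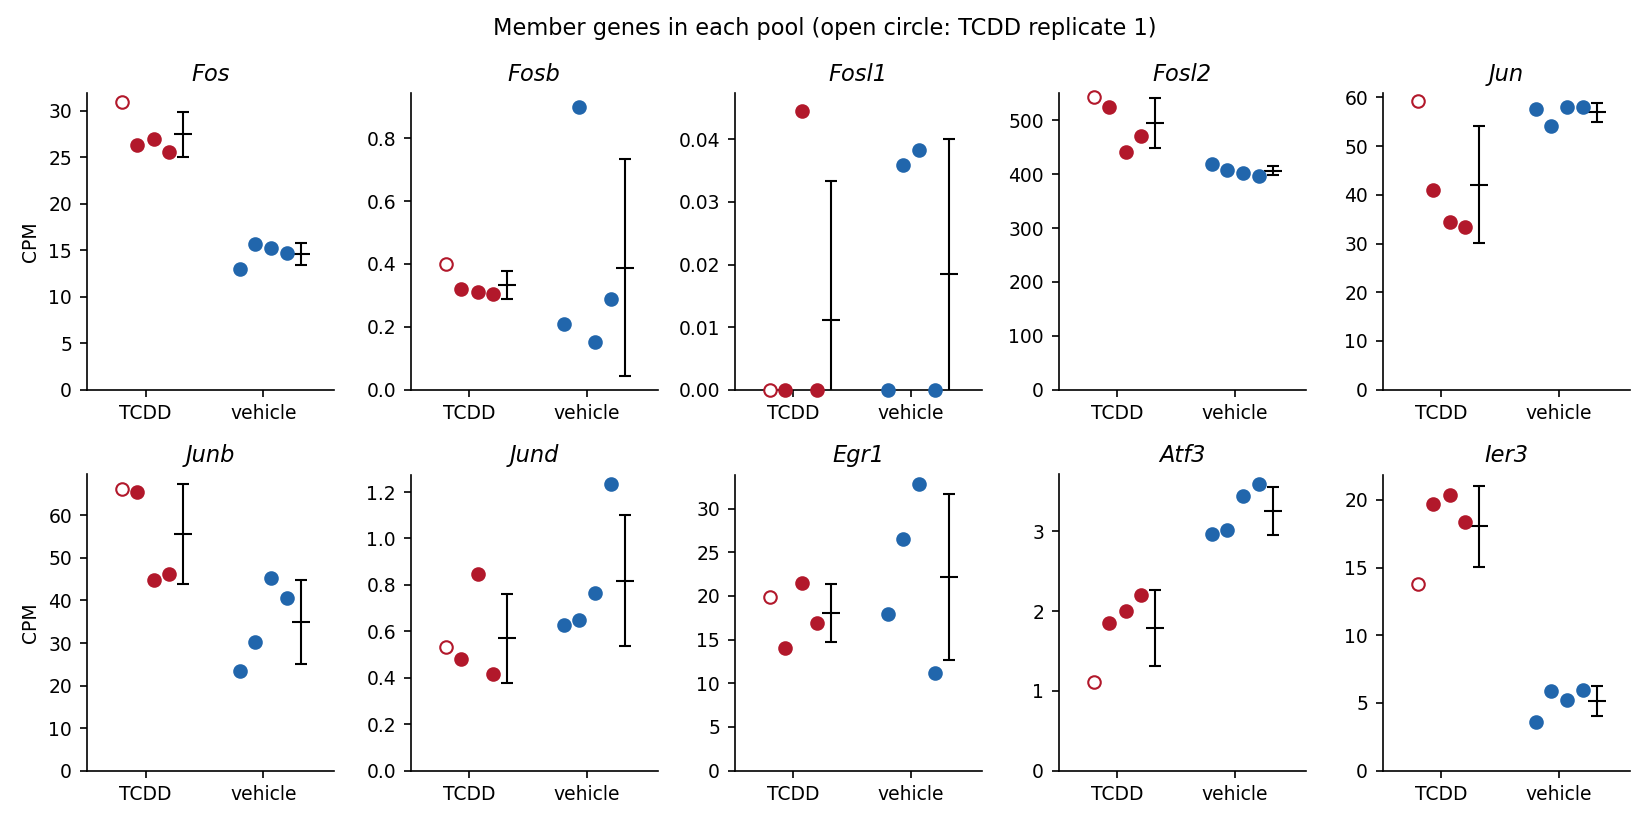
CPM of the 10 member genes in each pool, TCDD in red on the left and vehicle in blue on the right of each panel. Points stand for pools in the order of replicates 1 to 4, the open circle for TCDD replicate 1, and the black mark for the mean ± SD of 4 pools (cut off at 0). *Fos*, *Fosl2* and *Ier3* have no overlap between the groups, with TCDD above, and *Atf3* has none with TCDD below.

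*Fos*, the prototype of the FOS family and a gene induced by growth factors through SRF, lies at chr12:85473890-85477273 on the plus strand. It was measured at 31.0, 26.3, 27.0 and 25.6 CPM in TCDD replicates 1 to 4, against 13.0, 15.6, 15.2 and 14.7 CPM in vehicle replicates 1 to 4. Each TCDD pool was above each vehicle pool, and the lowest TCDD pool stood well clear of the highest vehicle pool. The log2 fold change was 0.84 ± 0.0968 (SE) over 7 pools, a 1.80-fold difference (edgeR quasi-likelihood test, adjusted p = 2.78e-05). With TCDD replicate 1 it was 0.91 ± 0.0962 (adjusted p = 1.81e-04). Tested against a 1.5-fold change (TREAT), *Fos* lay at the threshold, with an adjusted p of 0.0507 over 7 pools and 0.0435 over 8. In these bulk samples, more cells that hold a transcript and more transcript per cell cannot be told apart.

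*Fosl2*, which encodes FRA2, a FOS family protein that lacks the strong transactivation domain of FOS and is abundant in epithelia, lies at chr5:32135801-32157842 on the plus strand. It was by far the most abundant member. Its level was 542, 525, 442 and 470 CPM in TCDD replicates 1 to 4 and 418, 408, 402 and 397 CPM in vehicle replicates 1 to 4. The vehicle pools were tightly grouped, the TCDD pools spread more widely, and the groups did not overlap. The change was small, a log2 fold change of 0.23 ± 0.0715 (1.18-fold; edgeR adjusted p = 0.0289) over 7 pools and 0.28 ± 0.0725 (adjusted p = 0.0229) over 8. The call was lost without vehicle replicate 2, 3 or 4 (adjusted p = 0.0584, 0.0824 and 0.0613) and without TCDD replicate 2 or 4 (0.107 and 0.0682), while the log2 fold change in these fits was 0.16 to 0.24.

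The remaining genes of the FOS family were close to absent. *Fosb*, which is induced with *Fos* by many stimuli, had 32 counts over the 4 TCDD pools and 43 over the 4 vehicle pools. That is 0.303 to 0.399 CPM after TCDD and 0.153 to 0.900 CPM after vehicle, where the highest value came from vehicle replicate 2. *Fosl1*, which encodes FRA1, an AP-1 protein of keratinocytes and invasive cells, had 1 count over the TCDD pools and 2 over the vehicle pools. Neither passed the filter on low counts. By an exact permutation test of 4 against 4 pools (two-sided, smallest p possible 0.0286 without ties) the CPM of *Fosb* and of *Fosl1* gave p = 1 each. *Fosl1* had no count in most pools, so its test could not have reached that smallest p and decides nothing. At this depth no difference was detectable.

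*Jun* encodes c-JUN, the JUN family protein with the strongest transactivation, and its transcription is known to respond to JNK signalling. It lies at chr4:95049034-95052222 on the minus strand in a single exon. The values were 59.3, 40.9, 34.3 and 33.5 CPM in TCDD replicates 1 to 4, against 57.5, 54.1, 58.1 and 58.0 CPM in vehicle replicates 1 to 4. TCDD replicates 2 to 4 were all below the vehicle pools, and TCDD replicate 1 was above all of them. Over 7 pools the log2 fold change was −0.65 ± 0.0851 (0.636-fold, edgeR adjusted p = 8.38e-05). Over 8 pools it was −0.44 ± 0.160 and did not pass (adjusted p = 0.103), so that this call rests on leaving out 1 library.

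Mesenchyme markers moved with *Jun*. Their 13 genes summed to 79.8 to 84.9 CPM in TCDD replicates 2 to 4, to 158 CPM in TCDD replicate 1 and to 140 to 200 CPM in the vehicle pools. Of the 9 that could be tested over 7 pools, 7 were called lower after TCDD and 0 higher (edgeR, with 11.2% of all genes lower). Their median log2 fold change was −1.21. Over 8 pools 3 were lower, with 6% of all genes lower. The 3 most abundant were *Dcn*, *Col3a1* and *Lum*, matrix genes of fibroblasts. *Dcn* averaged 53.8 CPM in TCDD replicates 2 to 4 and 89.8 CPM in the vehicle pools, and *Col3a1* averaged 7.40 and 36.2 CPM. *Lum*, at 10.1 and 12.0 CPM, was not called (edgeR adjusted p = 0.173). Within the vehicle pools, where the summed markers ran from 140 to 200 CPM, *Jun* stayed between 54.1 and 58.1 CPM. Markers of smooth muscle (6 genes) had a like order, with 1.11 to 1.78 CPM in TCDD replicates 2 to 4, 5.93 CPM in TCDD replicate 1 and 2.87 to 5.97 CPM in the vehicle pools. Markers of endothelium (5 genes) summed to 0.341 to 0.980 CPM in TCDD replicates 2 to 4, 4.96 CPM in TCDD replicate 1 and 0.769 to 1.49 CPM in the vehicle pools. The part of RNA from these cells in the *Jun* difference was not tested.

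**Figure D2:**
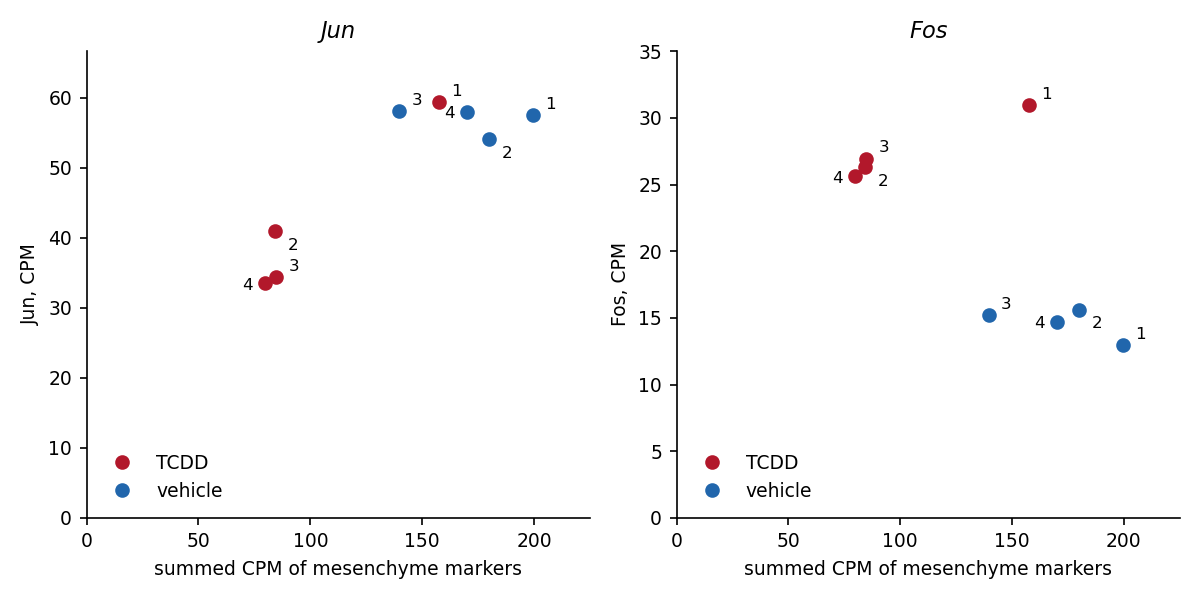
*Jun* (left panel) and *Fos* (right panel) in CPM against the summed CPM of 13 mesenchyme markers in each of the 8 pools, TCDD in red and vehicle in blue, with replicate numbers beside the points. TCDD replicate 1 has a marker sum (158 CPM) and a *Jun* level (59.3 CPM) like those of the vehicle pools, and a *Fos* level (31.0 CPM) above all other pools.

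*Fos* was ordered otherwise. TCDD replicate 1, whose marker sum lay within the range of the vehicle pools, had the highest *Fos* of the 8. Epithelial markers did differ between the groups in the same direction as *Fos*, with 9464 to 10631 CPM summed over 10 genes in the TCDD pools and 8562 to 8919 CPM in the vehicle pools. Among these 10 genes, 4 were called higher over 7 pools (*Krt8*, *Krt18*, *Krt19* and *Cldn4*) and 1 lower (*Shh*), where 11.9% of all genes were higher and 11.2% lower, with a median log2 fold change of 0.07. Their part in the *Fos*, *Fosl2* and *Ier3* differences was not tested.

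*Junb*, a JUN family member that is often induced together with *Fos* and that can oppose c-JUN at some promoters, lies at chr8:84974484-84978718 on the minus strand. Its level was 66.1, 65.5, 44.9 and 46.2 CPM in TCDD replicates 1 to 4 and 23.5, 30.3, 45.4 and 40.6 CPM in vehicle replicates 1 to 4. All TCDD pools but replicate 3 were above all vehicle pools, and replicate 3 fell just short of vehicle replicate 3. The log2 fold change was 0.58 ± 0.245 over 7 pools and did not pass the test (edgeR adjusted p = 0.146), nor did that of 0.67 ± 0.219 over 8 (adjusted p = 0.0781). Among vehicle pools *Junb* was unusually variable, with an SD on the log2 scale larger than that of 95.7% of tested genes.

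*Jund*, usually the most constant JUN gene and one that restrains proliferation in fibroblasts, was barely counted. It had 54 counts over the 4 TCDD pools and 90 over the 4 vehicle pools. By pool this was 0.531, 0.483, 0.846 and 0.417 CPM after TCDD and 0.629, 0.648, 0.765 and 1.23 CPM after vehicle, so the groups overlapped. The log2 fold change of −0.51 ± 0.391 over 7 pools did not pass (edgeR adjusted p = 0.396). Over 8 pools *Jund* was removed by the filter, and an exact permutation test on its CPM gave p = 0.171. The annotated transcript is a single exon of 1668 bases at chr8:70698949-70700616 (plus strand), and its GC content of 67.1% was the highest of the longest transcripts of the 10 genes. The RefSeq start of *Jund* lies 1210 bases upstream of the start of this GENCODE gene, so the annotated exon may not hold the whole transcript. The part of the base composition or of the gene model in the low counts was not tested.

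Set side by side per length (CPM per kb of annotated exon), the members kept a wide range of levels. In TCDD pools the mean order was *Fosl2* at 51.1, *Junb* at 24.2, *Ier3* at 16.0, *Jun* at 13.2, *Fos* at 11.7, *Egr1* at 4.03, *Atf3* at 0.831 and *Jund* at 0.341 CPM per kb (n = 4 pools). In vehicle pools it was *Fosl2* at 42.0, *Jun* at 17.8, *Junb* at 15.2, *Fos* at 6.21, *Egr1* at 4.93, *Ier3* at 4.56, *Atf3* at 1.51 and *Jund* at 0.491 CPM per kb (n = 4 pools). Neighbours overlapped in several places. In TCDD pools, the ranges of *Ier3*, *Jun* and *Fos* (12.2 to 18.0, 10.5 to 18.6 and 10.9 to 13.2 CPM per kb) cannot be ordered, and in vehicle pools neither can those of *Jun* and *Junb* (16.9 to 18.2 and 10.2 to 19.7) nor can that of *Egr1* (2.50 to 7.32) against *Fos* or *Ier3*, whereas *Fos* (5.51 to 6.64) was above *Ier3* (3.18 to 5.26). With the longest transcript as the length, *Junb* was at 19.3 and *Jun* at 17.8 CPM per kb in vehicle pools, which turns their order round.

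The balance between genes of a family can be read within each pool, where the scaling between libraries drops out. These ratios were formed after the values had been seen and are given as a description with no test. *Jun* made up 39.0, 30.8, 35.0 and 34.1% of JUN family transcript in TCDD replicates 1 to 4, against 63.0, 55.6, 47.4 and 49.7% in vehicle replicates 1 to 4. The groups did not overlap, TCDD replicate 1 included. Because *Jund* was barely counted, these are in effect shares of *Jun* and *Junb*. The ratio of *Junb* to *Jun* was 1.54, 2.22, 1.81 and 1.91 after TCDD and 0.565, 0.777, 1.08 and 0.970 after vehicle. With the longest transcript as the length, *Junb* has 1809 bases in place of 2301, and *Jun* keeps 3189. That raises this ratio by the same factor in every pool, so the order of the pools stays. The ratio of *Fos* to *Jun* was 0.707, 0.871, 1.06 and 1.04 after TCDD and 0.305, 0.392, 0.355 and 0.343 after vehicle.

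*Fosl2* made up most of the FOS family in every pool, 79.8 to 82.8% after TCDD and 86.1 to 88.6% after vehicle, and nearly all of the rest was *Fos*. The summed FOS family was 57.2 to 69.3 CPM per kb in TCDD pools and 47.3 to 49.0 CPM per kb in vehicle pools, with no overlap. The summed JUN family overlapped, at 30.8 to 47.7 and 28.6 to 38.4 CPM per kb. Transcript levels do not give the amounts or the dimers of the proteins.

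**Figure D3:**
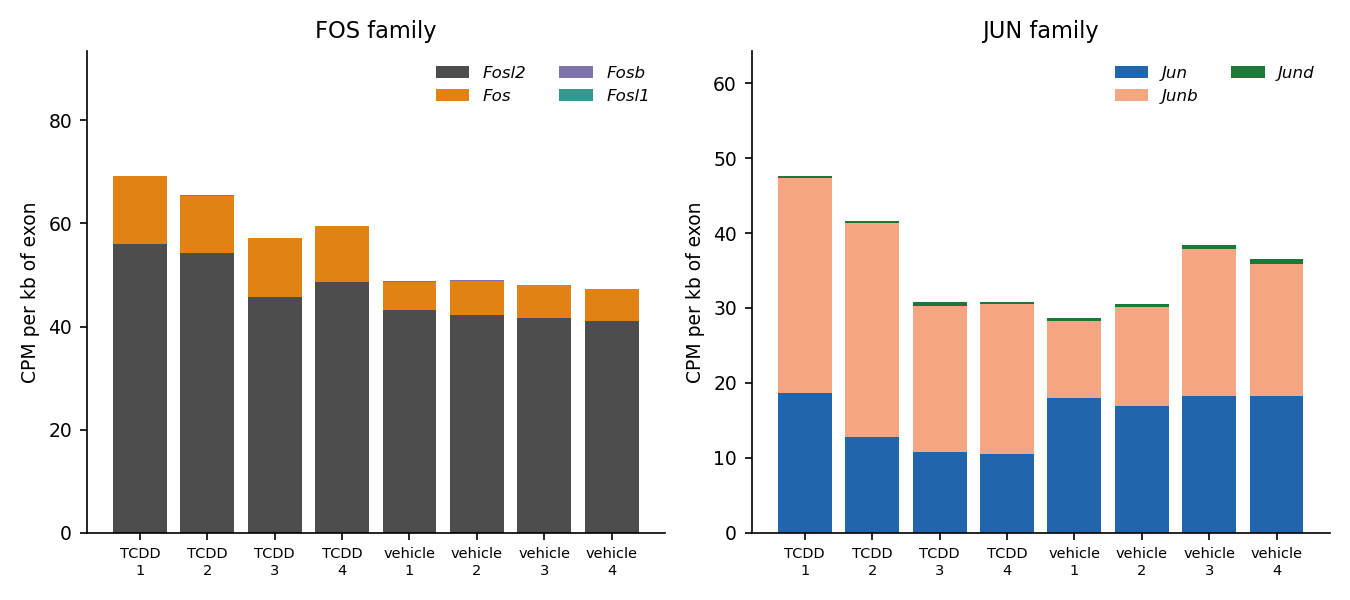
Stacked levels in CPM per kb of exon of the FOS family (left panel) and the JUN family (right panel) in each pool, TCDD replicates 1 to 4 left of vehicle replicates 1 to 4. In the JUN panel the *Junb* segment is taller than the *Jun* segment in all TCDD pools (ratio 1.54 to 2.22). In the vehicle pools it is about as tall or shorter (0.565 to 1.08). These ratios hold for the exon length used here and are higher with the longest transcript. In the FOS panel *Fosl2* dominates every bar.

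*Ier3* showed the largest change of the set. It encodes IEX-1, a small protein that is induced by stress, NF-kB and growth factors and that affects survival and ERK signalling, and it lies at chr17:35821684-35822923 on the plus strand. Its level was 13.8, 19.7, 20.4 and 18.4 CPM in TCDD replicates 1 to 4, against 3.60, 5.87, 5.20 and 5.95 CPM in vehicle replicates 1 to 4. The lowest TCDD pool was replicate 1, and it too stood far above the highest vehicle pool. The log2 fold change was 1.91 ± 0.152, or 3.77-fold (edgeR adjusted p = 1.08e-06), larger than that of 99.0% of the genes tested over 7 pools. Over 8 pools it was 1.81 ± 0.174 (adjusted p = 9.41e-05). *Ier3* was the 1 member that passed TREAT against a 1.5-fold change over 7 pools (adjusted p = 1.90e-05), where 4.03% of all genes passed, and over 8 pools it passed together with *Fos*, where 1.37% did.

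*Atf3*, a stress-induced factor of the ATF/CREB group that pairs with JUN proteins and often represses its targets, lies at chr1:191170296-191218039 on the minus strand. It was measured at 1.11, 1.85, 2.00 and 2.20 CPM in TCDD replicates 1 to 4 and 2.97, 3.02, 3.44 and 3.59 CPM in vehicle replicates 1 to 4. Every TCDD pool was below every vehicle pool, and TCDD replicate 1 was the lowest. The log2 fold change was −0.69 ± 0.205 over 7 pools (0.621-fold, edgeR adjusted p = 0.0257) and −0.85 ± 0.224 over 8 (adjusted p = 0.0262). The call was close to the threshold. It was lost with DESeq2 (adjusted p = 0.0771), without vehicle replicate 3 or 4 (0.0623 and 0.0507) and without TCDD replicate 2, 3 or 4 (0.0805, 0.0616 and 0.0596).

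*Egr1*, a zinc finger factor induced with *Fos* through SRF, showed no detectable difference. It was measured at 19.9, 14.0, 21.5 and 16.9 CPM in TCDD replicates 1 to 4 and 18.0, 26.5, 32.8 and 11.2 CPM in vehicle replicates 1 to 4. The vehicle pools spanned both the lowest and the highest value of the series. The log2 fold change was −0.35 ± 0.383 over 7 pools (edgeR adjusted p = 0.590) and −0.29 ± 0.304 over 8 (adjusted p = 0.594). Its SD among vehicle pools on the log2 scale, 0.66, was larger than that of 99.1% of tested genes. In the same 4 pools *Fos* varied less, with an SD of 0.11, and its highest pool was vehicle replicate 2 where that of *Egr1* was vehicle replicate 3.

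In counts of pools that do not overlap, *Fos*, *Fosl2* and *Ier3* had all 4 TCDD pools above all 4 vehicle pools and *Atf3* had all 4 below. That is 4 of the 7 members tested over 8 pools, and among all 14051 genes 18.4% did not overlap (10.1% above and 8.28% below). With TCDD replicate 1 left out, *Jun* joins them below, which makes 5 of 8 tested members, and among all 14233 genes 31.4% did not overlap in that comparison. The genes had been chosen with results of these data known, so nothing further is read from this share.

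**Figure D4:**
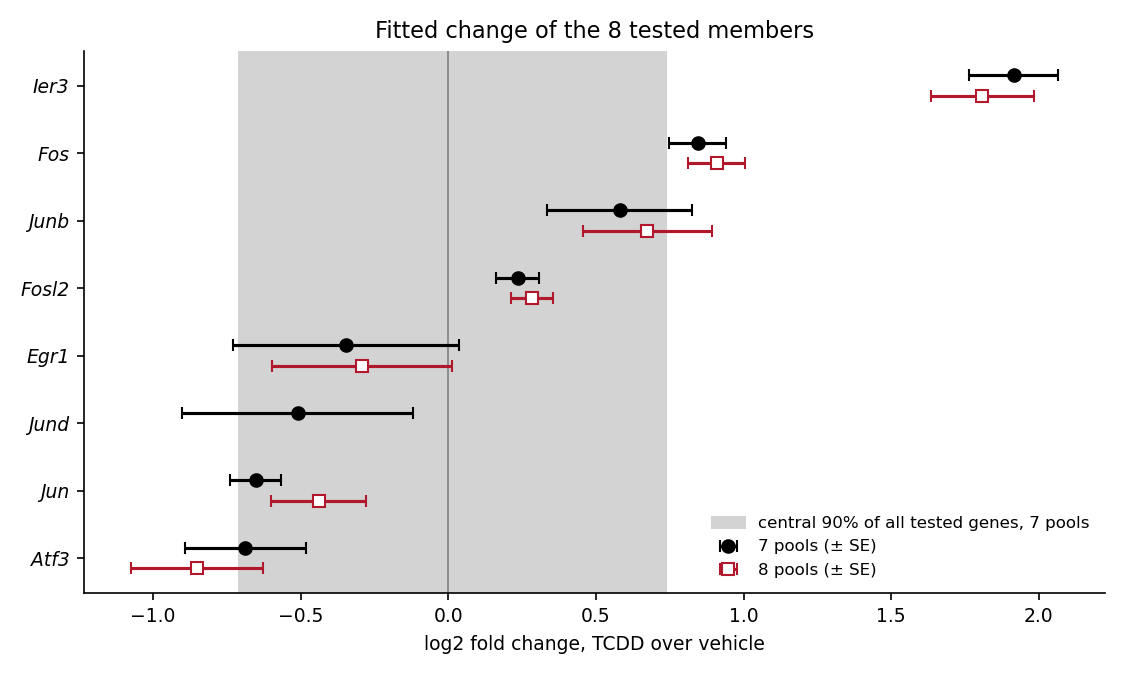
Log2 fold change of TCDD over vehicle for the 8 tested members, with SE as bars, over 7 pools (black circles) and over 8 pools (open red squares; *Jund* was tested over 7 only). The grey band holds the central 90% of all genes tested over 7 pools (−0.71 to 0.74). *Ier3* and *Fos* lie to the right of the band, and the 8-pool point of *Atf3* (−0.85) lies to its left. The point of *Jun* moves from −0.65 to −0.44 when TCDD replicate 1 enters.

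A wider list of 45 other immediate early genes moved more often up than down. Of the 42 that were tested over 7 pools, 15 were higher, 4 lower and 23 were not called (edgeR, background 11.9% and 11.2%), with a median log2 fold change of 0.19. Over 8 pools 13 were higher and 1 lower (all genes 7.41% and 6%), all of them among the calls over 7 pools. The 4 with the smallest adjusted p were *Nfil3*, *Maff*, *Btg2* and *Dusp4*. *Nfil3*, a bZIP repressor linked to the circadian clock and to immune cells, was measured at 73.2, 68.2, 74.4 and 77.5 CPM in TCDD replicates 1 to 4 and 35.0, 36.7, 30.7 and 37.7 CPM in vehicle replicates 1 to 4 (log2 fold change 1.06 ± 0.0857, edgeR adjusted p = 1.27e-06). *Maff*, a small MAF protein that pairs with NRF and FOS proteins, averaged 21.3 CPM in TCDD replicates 2 to 4 and 10.7 CPM in vehicle pools (log2 fold change 0.99 ± 0.113, adjusted p = 2.64e-05). *Btg2*, an antiproliferative gene, had a log2 fold change of 0.82 ± 0.0952 (adjusted p = 3.09e-05). *Dusp4*, a phosphatase that inactivates MAP kinases, had one of 0.79 ± 0.10 (adjusted p = 6.49e-05), and its TCDD replicate 1, at 22.2 CPM, lay within the range of the vehicle pools (20.9 to 23.3 CPM).

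The 4 that were lower were *Arc*, *Ier5l*, *Nr4a2* and *Trib1*, named after their values had been seen, with log2 fold changes of −0.67, −0.56, −0.43 and −0.39. Of these *Arc* alone was also called over 8 pools. Of the relatives of *Ier3* by name, *Ier2*, like *Egr1* a rapid SRF target, had a log2 fold change of −0.18 and *Ier5* of 0.09, and neither passed (adjusted p = 0.370 and 0.409). *Egr2* and *Egr4* had no count in any pool. *Ier2* and *Ier5* are named outside the rule for named genes, after their values had been seen.

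**Figure D5:**
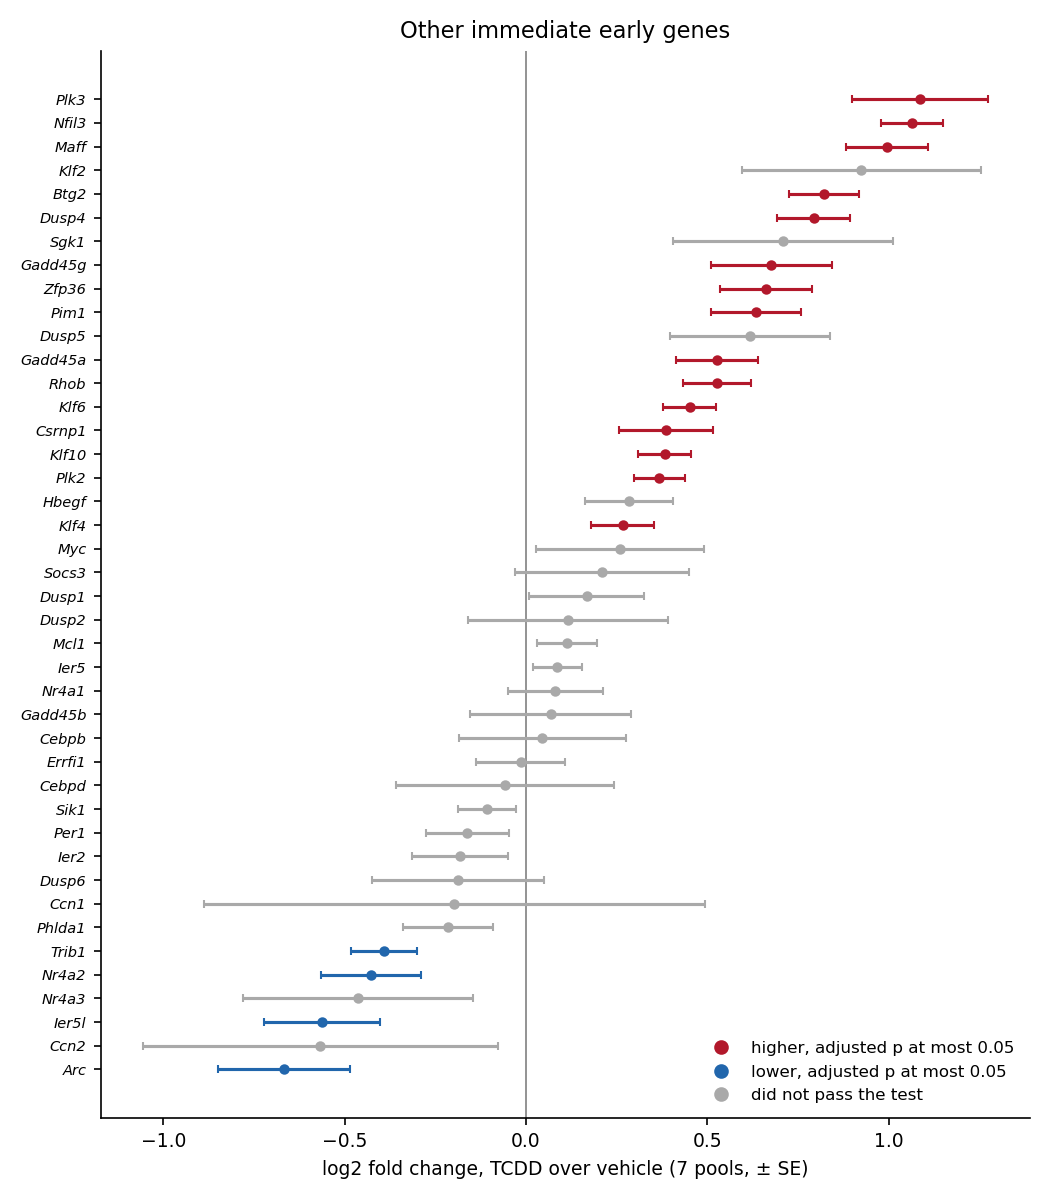
Log2 fold change of TCDD over vehicle (7 pools, bars are SE) for the 42 tested genes of the list of other immediate early genes, sorted by size. Red points passed at an adjusted p of at most 0.05 and are higher (15), blue points passed and are lower (4), and grey points did not pass (23).

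Among the other proteins that pair with FOS or JUN, few were called (all genes 11.9% higher and 11.2% lower). Of 15 tested over 7 pools, 1 was higher (*Mafk*, a small MAF protein, log2 fold change 0.48 ± 0.104, edgeR adjusted p = 0.00370) and 1 lower (*Creb5*, −0.95 ± 0.278, adjusted p = 0.0289, lost over 8 pools at 0.142). Their median log2 fold change was 0.05. *Atf4* and *Ddit3*, factors of the integrated stress response, had all TCDD pools above all vehicle pools but were not called, with log2 fold changes of 0.15 and 0.29 (adjusted p = 0.125 and 0.140). *Maf*, also within the 4 smallest, was at −0.56 (adjusted p = 0.0679).

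Among 20 kinases and factors that act upstream of these genes, 4 were higher and 1 lower over 7 pools (all genes 11.9% and 11.2%; median log2 fold change of the list 0.01), and 3 were higher and 0 lower over 8 pools (all genes 7.41% and 6%). Among those that rose were *Braf* (log2 fold change 0.63 ± 0.0854, edgeR adjusted p = 1.22e-04), *Map2k1* (0.23 ± 0.0664, adjusted p = 0.0211) and *Mapk11* (0.78 ± 0.203, adjusted p = 0.0121), which encode kinases of MAP kinase pathways. *Mapk11* was not called over 8 pools (adjusted p = 0.0635). *Srf*, the factor at the serum response element of *Fos* and *Egr1*, fell by 0.43 on the log2 scale (adjusted p = 0.0363) over 7 pools and missed the threshold over 8 (adjusted p = 0.105), and is named after its value had been seen. *Elk1*, its partner at that element, was below in all TCDD pools but did not pass (−0.25, adjusted p = 0.0569).

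Of 23 textbook targets of AP-1, 16 were tested over 7 pools, of which 6 were higher, 2 lower and 8 were not called (all genes 11.9% higher and 11.2% lower; median log2 fold change of the list 0.25). *Areg*, an EGF receptor ligand, was measured at 11.8, 13.4, 19.8 and 18.5 CPM in TCDD replicates 1 to 4 and 3.39, 6.69, 5.47 and 4.10 CPM in vehicle replicates 1 to 4, a log2 fold change of 1.81 ± 0.210 (edgeR adjusted p = 7.18e-05). A second ligand of that receptor, *Ereg*, rose by 1.57 ± 0.215 (adjusted p = 1.22e-04). *Cdkn1a*, the inhibitor p21, rose by 0.63 ± 0.0839 (adjusted p = 9.73e-05) and *Plau*, the protease urokinase, by 0.93 ± 0.139 (adjusted p = 2.49e-04) on the log2 scale. The other 2 that rose, *Plaur* and *Cd44*, were not called over 8 pools, and the 2 that fell were *Ccnd1* (−0.62, adjusted p = 0.0136) and *Mmp14* (−0.32, adjusted p = 0.0110). The last 4 are named after their values had been seen. All are known to be controlled by other factors as well.

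Heat shock genes are known to rise together with immediate early genes when tissue is warmed or digested. The part of handling in the differences of the members was not tested. Of 12 heat shock genes tested over 7 pools, 1 was called higher and 0 lower, where 11.9% of all genes were higher and 11.2% lower. The gene called was *Bag3*, a co-chaperone (log2 fold change 0.40 ± 0.0836, edgeR adjusted p = 0.00311). The median log2 fold change of the 12 genes was 0.00. Their summed level was 6501 to 6803 CPM in TCDD replicates 2 to 4, 7049 CPM in TCDD replicate 1 and 6178 to 7159 CPM in the vehicle pools. *Hspb1*, *Hsph1* and *Hspa1a*, next in order of adjusted p, did not pass (0.0941, 0.130 and 0.135).

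The genes whose pattern over the 8 pools was most like that of *Fos* were sought among 13539 genes by Pearson's r of log2(CPM + 0.5). They were *Cldnd1* (r = 0.992), *Krt1* (0.989), *Ovol1* (0.986), *Sox21* (0.985) and *Cyp1b1* (0.980). *Krt1* is a keratin of differentiating epidermis, *Ovol1* an epithelial transcription factor and *Cyp1b1* a direct AHR target. With the group means taken out, r with *Fos* was 0.857 for *Cldnd1*, 0.775 for *Krt1*, 0.909 for *Ovol1*, 0.620 for *Sox21* and 0.465 for *Cyp1b1*, so that much of the likeness is the difference between the groups that the 8 points share. The genes most like *Jun* were *Tulp3* (r = 0.991), *Megf6* (0.989), *Wfikkn2* (0.988), *Col5a1* (0.986) and *Gm1673* (0.986). For these, r with the group means taken out was 0.977 to 0.983. The SD of *Jun* on the log2 scale was 0.376 among TCDD pools and 0.049 among vehicle pools. TCDD replicate 1, at 59.3 CPM, stood apart from TCDD replicates 2 to 4 (33.5 to 40.9 CPM). These r therefore rest largely on that 1 library.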

How the data were processed

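UGS epithelium pools (4 TCDD, 4 vehicle) were sequenced on 2 lanes each. Per the methods and the submitters' processing notes, the authors trimmed reads, checked them with FastQC 0.11.9, ran HISAT2 2.1.0 against GRCm38.p6 (index described with Bowtie2 2.4.1), sorted the alignments with SAMtools 1.10 and made the deposited counts with HTSeq 0.12.4 (reverse-stranded, over exons), so antisense neighbours are counted apart. The authors' comparison tables (R 4.0.2, edgeR 3.30.3), which hold log2 fold changes, p-values and FDR, were not used. Lines naming no gene (17.4 to 20.1% of a column) were left out.

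Lanes of a pool differed by no more than sampling noise (chi-square per gene 0.995 to 1.03) and were averaged. Genes were filtered with filterByExpr (minimum count 10, minimum total 15), scaled by TMM and tested in R 4.3.3 with the robust quasi-likelihood F-test of edgeR 4.0.16 (legacy method) and with TREAT against 1.5-fold, with Benjamini-Hochberg adjustment over all tested genes at 0.05. TCDD replicate 1 was left out as the authors did, and all 8 pools were fitted beside it. Printed CPM are scaled over all 8 pools, and CPM per kb use exon lengths of GENCODE M21, which also gives coordinates (GRCm38, 1-based). Promoters are from RefSeq, which matched 8 of the 10 members. The fit was tested on simulated data. Alternatives were DESeq2 1.42.0, limma 3.58.1 (voom), other scalings, no filter, single lanes, a replicate block and leaving out each pool. Depth sets the precision of low genes, and p-values measure the spread between pools, whose litters are not given.

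The members and lists were chosen with earlier results of these data known. Named genes were all members, the 4 or fewer genes with the lowest adjusted p in each list, any listed gene without overlap between the groups where a list had at most 4, the 3 most abundant markers of a cell type described, and the 5 genes most like *Fos* and *Jun*. The result of 1 gene that this rule names is not reported here.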

Additional observations from a re-analysis of the deposited data

Results flagged for a closer look

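In 2 cases a value stood far from the other pools of its group by Dixon's criterion for 4 samples. *Jun* in vehicle replicate 2, at 54.1 CPM, lay below the other vehicle pools (57.5 to 58.1 CPM), with a gap of 0.873 of the range, although the range is narrow. *Fosl1* in TCDD replicate 3, at 0.0446 CPM, is the single count of that gene in the TCDD pools. Of 20 sets of a member and a group, 2 were singled out, and chance gives about 1 in 20 for continuous values. The *Fosl1* flag cannot be set against that rate, since a lone count among pools without one always meets the criterion. *Jun* of TCDD replicate 1 did not meet the criterion.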

How the results depend on the processing

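*Fos*, *Ier3*, *Junb* and *Egr1* kept their direction and their side of the threshold in all 25 alternatives, and *Jund* in the 17 that tested it. Log2 fold changes ran from 0.78 to 0.94 for *Fos*, from 1.66 to 1.98 for *Ier3* and from 0.38 to 0.81 for *Junb*. The call was lost in 10 of 25 for *Fosl2*, 8 for *Jun* and 12 for *Atf3*, with no change of direction, and the cause was not tested. All the fits that lost the *Jun* call held TCDD replicate 1, and each fit without that pool kept it. Members called lower numbered 1 in place of 2 with all 8 pools, the DESeq2 Wald test, lane 4 alone and the replicate block over 7 pools. Those called higher numbered 2 to 3 leaving out 1 of the 7 pools. The count called lower was 1 to 2 leaving out 1 of the 7 pools and 0 to 1 leaving out 1 of all 8, an alternative chosen after seeing the data. Members passing TREAT numbered 2 in place of 1 with 8 pools and with lane 3 alone, and 1 to 2 leaving out 1 pool. Genes called higher were 1688, but 1041 with 8 pools and 1109 with the replicate block over 8. Genes called lower were 1588, 843 and 979 in the same fits. Other immediate early genes called lower were 4, but 1 with 8 pools, 2 with lane 3 alone, 2 with the replicate block over 8 pools and 1 to 4 leaving out 1 pool.

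Same-numbered pools did not consistently deviate together (r from −0.15 to 0.38). In 2 of 4 cases r was over 0.1, the value set to count as paired, and the numbers were not taken as pairs. With the replicate block over 7 pools *Fosl2* and *Atf3* missed the threshold (adjusted p = 0.0671 and 0.0561), and with the block over 8 pools *Jun* passed it (0.0467). Without composition scaling the median log2 fold change of all genes moved to −0.04 and 1435 genes were called higher and 1974 lower (42.1% of calls higher, against 51.5% with TMM), and with upper-quartile scaling 1480 and 1898. No member changed direction in either. Few counts limit *Fosb*, *Fosl1* and *Jund*.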
